A study of Mus musculus with 6 samples.

Results

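Alveolar capillary aerocytes (aCap) are the large capillary endothelial cells that lie against the alveolar epithelium. The cells described here are the 3376 cells that the annotation of the study places in its aCap cluster, out of 61839 cells in all and 10969 endothelial cells. They made up 5.46% of all cells and 30.8% of endothelial cells. Lungs came from 36 wild-type C57BL/6 mice, with 6 mice in each of 6 groups. Both sexes were used, and the study states that their distribution was unequal at P3 and P7 and equal at P14. Sex entered no test here. Pups breathed room air (21% O2, normoxia) or 85% O2 (hyperoxia) from the day of birth until the day of harvest, which was postnatal day 3 (P3), P7 or P14. The lactating dams were rotated between the chambers, and no group carried an altered allele. Pups of all groups were given pentobarbital and heparin at harvest. Lung cells were tagged with 1 sample barcode per mouse, pooled and sequenced, and each messenger RNA was counted once through its unique molecular identifier (UMI). The groups held 618 and 449 aCap cells at P3 in normoxia and hyperoxia, 472 and 470 at P7, and 697 and 670 at P14.

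The capillary bed of the alveolus has a pair of endothelial cell types. Aerocytes carry carbonic anhydrase on their surface and are specialised for gas exchange, whereas general capillary cells (gCap) divide, repair the bed and can give rise to aerocytes. Aerocytes need VEGFA from the alveolar epithelium, which they bind through the receptor encoded by *Kdr*, and they secrete apelin, whose receptor *Aplnr* is carried by gCap cells.

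The label was checked on its markers. Levels were computed as counts per 1000000 UMIs of the cell type in a mouse (CPM). All 5 markers had their highest mean level in aCap cells among the 33 types that reached 10 cells in a mouse, where the means run over all ages and both oxygen levels. *Car4*, a membrane-bound carbonic anhydrase (chr11:84957786-84966044), reached 1025 ± 191.9 CPM (SD, n = 35 mice), against 138.0 ± 99.2 CPM in gCap cells. *Kdr* (chr5:75932827-75978458) stood at 1805 ± 221.2 CPM, against 682.4 CPM in gCap cells. *Kitl*, the ligand of the receptor Kit (chr10:100015630-100100416), stood at 1681 ± 286.6 CPM, against 570.8 CPM. For *Ednrb*, an endothelin receptor (chr14:103814625-103844402), the means were 686.6 ± 319.8 CPM and 76.4 CPM. Myofibroblasts came next for this gene with 532.9 ± 227.7 CPM (SD, n = 19 mice), and the aCap cells of hyperoxic P14 mice lay below that mean, at 160.7 to 269.8 CPM. *Apln*, which encodes apelin (chrX:48025146-48034853), had 537.0 ± 325.6 CPM, against 226.6 CPM. The positions follow GENCODE vM21 (GRCm38). Since the same genes took part in the clustering, these levels describe the type and were not tested.

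The aCap share of all cells rose in hyperoxia at P14 and not detectably at P3 or P7. At P14 the 6 normoxic mice had between 4.71% and 5.71% aCap cells, with a median of 4.97%, and the 6 hyperoxic mice between 5.73% and 8.70%, with a median of 7.32%. The groups did not overlap, and the difference of 2.24 percentage points had an adjusted p of 0.00649 in a two-sided exact permutation test, whose smallest unadjusted p is 0.00216. Within both P14 pools the groups were also apart, by 2.38 and 2.09 points. At P7 the normoxic shares ran from 4.03% to 5.56% and the hyperoxic ones from 3.83% to 7.20% (exact permutation test, adjusted p = 0.354). The highest value came from a mouse with 125 cells, of which 9 were aCap cells. In the pool of P7 1 the groups were apart, by 1.35 points, and in the pool of P3 and P7 they overlapped, with a difference of 0.115 points (exact permutation test within pools, adjusted p = 0.0675).

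At P3 the share depended on the pool. In the pool that mixed mice of P3 and P7, the 3 normoxic P3 mice had 1.54% to 2.94% aCap cells and the 3 hyperoxic ones 3.04% to 3.17%. In the other P3 pool the order was the opposite, with 6.84% to 8.08% in normoxia and 4.15% to 6.53% in hyperoxia. With 3 against 3 mice, the smallest p of an exact permutation test is 0.1, and the pooled difference of -0.68 points gave an adjusted p of 0.604 in the exact permutation test over 6 against 6 mice.

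As a part of the endothelium, aCap cells rose with hyperoxia at P7 and P14. Their median share of endothelial cells at P3 was 28.6% over normoxic and 30.4% over hyperoxic mice (exact permutation test, adjusted p = 0.561). At P7 the medians were 27.7% in normoxia and 40.7% in hyperoxia, and P14 gave 20.9% and 51.5%. The groups did not overlap on either of these later days (exact permutation test, adjusted p = 0.00325 for both). The share of gCap cells among all cells moved with it, from a median of 16.9% in normoxia to 5.23% in hyperoxia at P14. A share cannot tell more aCap cells from fewer cells of other types. The effect on the endothelial share was larger at P14 than at P3 by 27.6 points (permutation test with 100000 resamples, adjusted p = 0.00459), whereas for the share of all cells the same difference of 2.92 points gave an adjusted p of 0.139 in the permutation test. In normoxia the share of all cells did not differ detectably between ages (exact permutation tests, adjusted p = 0.929 for all 3 pairs). These tests ignore the pool, and P3 and P7 differed in opposite directions by pool. In the pool of both ages the normoxic mice had 1.54% to 2.94% at P3 and 4.03% to 4.71% at P7. The separate pools had 6.84% to 8.08% at P3 and 5.21% to 5.56% at P7. The normoxic share of endothelial cells was lower at P14 than at P7 (mean difference -5.91 points) and than at P3 (-7.50 points) (exact permutation tests, adjusted p = 0.0422 for both). Neither difference held in every choice of pools, which was examined after seeing the data. The difference to P7 was -2.87 points without the pool of P7 1 and -4.38 points without that of P14 1 (exact permutation tests, p = 0.238 and 0.155). The difference to P3 was -2.15 points without the pool of P3 2 and -5.98 points without that of P14 1 (exact permutation tests, p = 0.310 and 0.226).

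**Figure D1:**
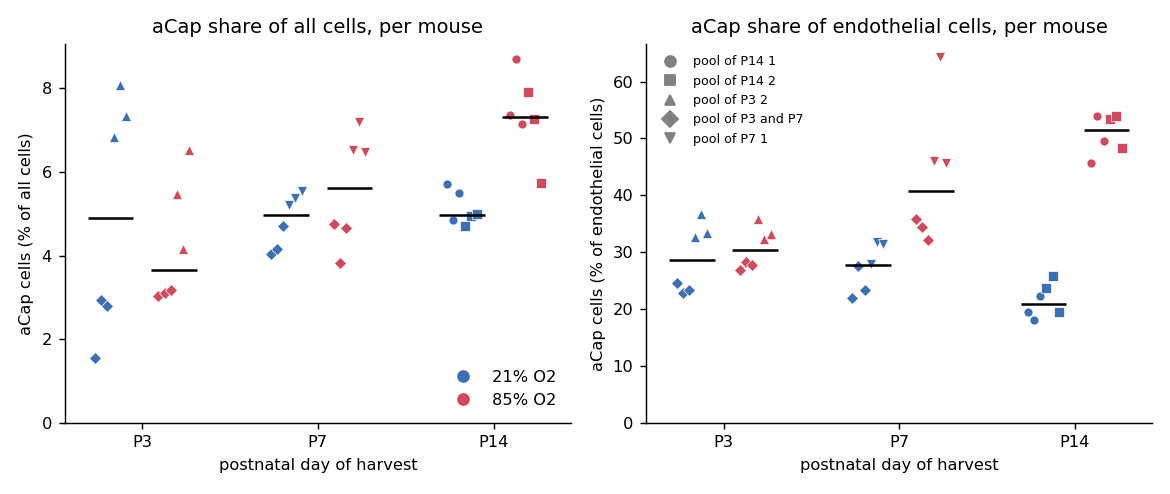
aCap cells of each mouse as a percentage of all its cells (left) and of its endothelial cells (right) by postnatal day, in 21% O2 (blue) and 85% O2 (red). Marker shapes are the pools, horizontal lines are medians, and at P14 every hyperoxic mouse lies above every normoxic mouse in both panels.

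Gene levels were compared on the UMI sums of aCap cells per mouse with edgeR's quasi-likelihood test and Benjamini-Hochberg adjustment over all genes tested. A mouse entered with at least 10 aCap cells, which left out 1 hyperoxic P7 mouse with 9, so that 35 mice with 13 to 192 aCap cells and 75876 to 1066498 UMIs each were fitted. A gene is said to rise or fall where the adjusted p lay under 0.05 and 10% or more of the aCap cells of an oxygen level held a UMI of it. Detection was counted on the cells as deposited, whose depth differed with oxygen. Over all ages 2850 of 7420 genes changed (38.4%), of which 1548 rose (20.9%) and 1302 fell (17.5%). By age, P3 gave 90 changed genes (1.21%), P7 1076 (14.5%) and P14 3302 (44.5%). With the pool as a replicate block P3 gave 243, of which 183 rose. The counts of gene lists are to be read against these shares. The oxygen groups of a gene were apart for 24.7% of all genes at P14, against 6.85% at P7 and 1.42% at P3. The median log2 fold change of all genes tested was -0.01 over all ages. Of the 16 genes that the study names for aCap cells 12 rose and 2 fell, which is not independent evidence since they were chosen on these samples. Those that fell were *Bmpr2* and *Esam*, whereas the study describes *Bmpr2* as upregulated in hyperoxia and predicts activation of *Esam*. With the pool as a replicate block 14 rose and 2 fell. Of 15 genes of ligand and receptor pairs 13 were tested, and 4 rose and 5 fell.

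The depth of the cells differed with oxygen. The median number of UMIs per aCap cell lay between 1724 and 2418 in the normoxic and between 3442 and 5958 in the hyperoxic P14 mice (exact permutation test, adjusted p = 0.00649). At P7 the medians ran from 2091 to 4642 and from 3532 to 5102 (exact permutation test, adjusted p = 0.0357), and at P3 no difference was detectable (exact permutation test, adjusted p = 0.468). The percent of mitochondrial UMIs was also higher in hyperoxia at P14, at 6.79% to 8.77% against 5.22% to 7.26%, and at P3, at 5.07% to 7.34% against 3.63% to 5.29% (exact permutation tests, adjusted p = 0.0227 for both). At P7 the medians were 5.54% and 5.31% (exact permutation test, adjusted p = 0.468). The part of depth in the results was examined by thinning every cell to 1000 UMIs.

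Among the 5 markers, *Apln* rose, *Ednrb* fell, and *Car4*, *Kdr* and *Kitl* did not pass the test over all ages or at any age. *Apln* lay between 283.2 and 395.4 CPM in normoxic and between 359.2 and 452.0 CPM in hyperoxic P3 mice, which overlapped. At P7 its normoxic range was 283.6 to 436.7 CPM, with a median of 368.7, and its hyperoxic range 552.2 to 1044 CPM, with a median of 685.8. At P14 it had 233.5 to 337.0 CPM, with a median of 267.2, in normoxia and 916.6 to 1328 CPM, with a median of 1142, in hyperoxia. Every hyperoxic mouse was above every normoxic mouse at P7 and P14, with log2 fold changes of 1.09 ± 0.13 (SE, adjusted p = 1.33e-08) and 2.06 ± 0.13 (adjusted p = 1.56e-18). At P3 the log2 fold change was 0.36 ± 0.14 (adjusted p = 0.209).

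*Ednrb* went the other way. Its normoxic and hyperoxic mice overlapped at P3, at 474.5 to 921.0 and 471.6 to 947.4 CPM. At P7 the medians were 808.6 CPM in normoxia and 496.8 CPM in hyperoxia, with ranges of 599.1 to 1124 and 332.8 to 636.0 CPM. At P14 the normoxic mice had 903.4 to 1273 CPM, with a median of 1179, and the hyperoxic mice 160.7 to 269.8 CPM, with a median of 194.4. The groups were apart at P14, where the log2 fold change was -2.38 ± 0.17 (adjusted p = 2.32e-16), and they overlapped at P7, where it was -0.64 ± 0.17 (adjusted p = 0.00700). The effect at P14 was lower than that at P3 by 2.31 ± 0.24 on the log2 scale (adjusted p = 3.24e-10).

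For *Car4*, *Kdr* and *Kitl* no change passed the test without the pool as a block. The same genes took part in the clustering that assigned the cells, and the part of the assignment in their levels was not tested. The medians of *Car4* at P14 were 989.0 CPM in normoxia and 993.7 CPM in hyperoxia, and its log2 fold change over all ages was 0.16 ± 0.08 (adjusted p = 0.126). With the pool as a replicate block the value for Car4, all ages, was 0.17 and passed (adjusted p = 0.0399). After thinning to 1000 UMIs, 68.03% ± 3.23 (SD, n = 6) of normoxic and 58.4% ± 3.45 (SD, n = 6) of hyperoxic aCap cells at P14 had a UMI of *Car4* (exact permutation test, adjusted p = 0.00587), against 81.0% and 83.2% before thinning (exact permutation test, adjusted p = 0.674). The thinned share does not follow the CPM, and no direction is read from it. For *Kdr* the medians at P14 were 1816 and 1938 CPM, with a log2 fold change over all ages of 0.01 ± 0.06 (adjusted p = 0.915). *Kitl* had medians of 1618 and 1648 CPM and a log2 fold change of -0.05 ± 0.08 (adjusted p = 0.604). The groups overlapped at every age for these 3 genes. In the whole list of 20 aCap markers, 19 were tested, of which 4 rose (*Apln*, *Cyp4b1*, *Igfbp7* and *Pmp22*) and 6 fell (*Ednrb*, *Fibin*, *Emp2*, *Nckap5*, *Clec14a* and *Nrp1*) over all ages, with a median log2 fold change of -0.05. Over all genes 20.9% rose and 17.5% fell. *Fibin* fell from 330.1 to 571.3 CPM in normoxic to 25.3 to 125.0 CPM in hyperoxic P14 mice, and its log2 fold change over all ages was -1.40.

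**Figure D2:**
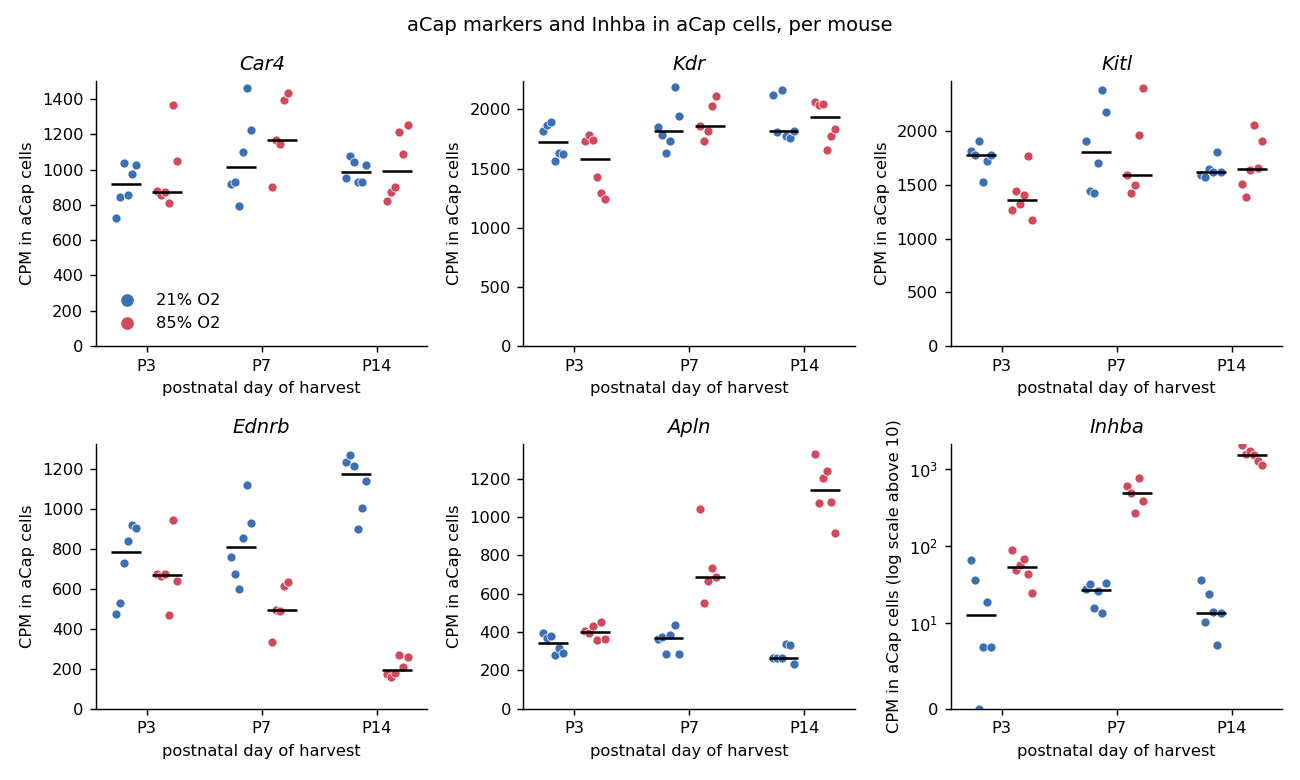
CPM of the 5 aCap markers and of *Inhba* in the aCap cells of each mouse by postnatal day, in 21% O2 (blue) and 85% O2 (red), with medians as lines; the axis of *Inhba* is logarithmic above 10 CPM and the others are linear. *Car4*, *Kdr* and *Kitl* overlap between oxygen levels at each age, *Ednrb* is lower and *Apln* and *Inhba* are higher in hyperoxia at P14.

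Activins and TGF-β are secreted dimers that act through paired serine kinase receptors and SMAD proteins, and in the endothelium BMP receptors with endoglin act beside them. *Inhba* (chr13:16011851-16031621), the subunit of activin A, showed the largest increase of any gene whose average log2 CPM reached 5. At P3 it had 0 to 65.9 CPM, with a median of 12.96, in normoxia and 24.5 to 90.2 CPM, with a median of 53.4, in hyperoxia. At P7 the ranges were 13.7 to 33.8 CPM, with a median of 27.0, and 274.7 to 770.5 CPM, with a median of 486.1. At P14 they were 7.45 to 36.6 CPM, with a median of 13.7, and 1147 to 2050 CPM, with a median of 1557. The groups overlapped at P3 and were far apart later. The log2 fold change rose from 1.83 ± 0.42 at P3 (adjusted p = 0.0131) to 4.41 ± 0.28 at P7 (adjusted p = 6.96e-17) and 6.35 ± 0.28 at P14 (adjusted p = 8.98e-24), and the effect at P14 exceeded that at P3 by 4.52 ± 0.62 (adjusted p = 2.27e-07).

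The same gene was counted in B cells, which should lack it. At P14, 7.72 CPM of *Inhba* were seen in 978 B cells of normoxic and 7.88 CPM in 312 B cells of hyperoxic mice, so that the normoxic aCap level lay near this background and the hyperoxic level above it. After thinning to 1000 UMIs, 1.82% ± 1.48 (SD, n = 6) of normoxic and 59.4% ± 10.7 (SD, n = 6) of hyperoxic aCap cells at P14 had a UMI of *Inhba* (exact permutation test, adjusted p = 0.00587, before thinning 4.63% and 74.4%). In B cells thinned in the same way the shares were 1.07% and 1.62%, and the median depths of B cells were 1679 and 1907 UMIs. Across normoxic and hyperoxic mice, *Inhba* had a mean of 359.9 ± 594.3 CPM in aCap cells (SD, n = 35), 158.2 CPM in alveolar macrophages and 129.9 CPM in gCap cells. No normoxic mouse had more than 65.9 CPM in its aCap cells, so that the normoxic levels lay below the mean of 79.5 CPM in the pericyte 1 type.

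Among 13 ligands of the family, 5 were tested in aCap cells, of which *Inhba*, *Tgfb2* and *Gdf15* rose and *Bmp6* fell. Over all genes 20.9% rose and 17.5% fell. In normoxia fewer than 10% of aCap cells at each age held a UMI of the 3 rising ligands. At P14 the normoxic shares before thinning were 4.63%, 5.25% and 2.29%. These ligands met the criterion on detection through hyperoxic cells, so that the count is not read as a result about the family. *Tgfb2* had medians of 13.3 CPM in normoxic and 13.4 CPM in hyperoxic P3 mice. At P14 its ranges were 4.97 to 41.7 CPM and 278.3 to 710.9 CPM, which did not overlap. Its log2 fold change was -0.37 ± 0.59 at P3 (adjusted p = 0.865) and 4.46 ± 0.26 at P14 (adjusted p = 8.90e-20), with a difference of 4.83 ± 0.68 between the ages (adjusted p = 5.02e-07). Of 12 receptors 10 were tested, and 2 rose and 3 fell, where 20.9% of all genes rose and 17.5% fell. Endoglin (*Eng*) rose by 0.85 and *Acvr1*, a type I receptor, by 0.47, and *Tgfbr2*, the type II receptor of TGF-β, fell by 0.46 on the log2 scale over all ages. The BMP type II receptor *Bmpr2* lay between 1282 and 1823 CPM in normoxic and between 812.2 and 956.6 CPM in hyperoxic P14 mice, which did not overlap. It changed by -0.31 ± 0.09 over all ages (adjusted p = 0.00313) and by -0.84 ± 0.10 at P14 (adjusted p = 3.06e-09).

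Of 13 inhibitors of the pathway 7 were tested, and *Bambi*, a decoy receptor, rose by 0.94 and *Skil*, a SMAD repressor, by 0.38 on the log2 scale. Of 12 target genes tested 7 rose and 2 fell, where 20.9% of all genes rose and 17.5% fell. *Ctgf* is among them and is named by the study on these samples. It met the criterion on detection through hyperoxic cells. Before thinning, 7.39%, 5.7% and 6.47% of normoxic aCap cells held a UMI of it at P3, P7 and P14. The count is not read as a result about the pathway. *Ctgf*, a matricellular protein, had 16.7 to 30.8 CPM in normoxic and 256.7 to 603.8 CPM in hyperoxic P14 mice, and its log2 fold change was 0.67 ± 0.43 at P3 (adjusted p = 0.566) and 4.50 ± 0.24 at P14 (adjusted p = 4.18e-21). *Tgfbi* rose by 1.27. *Hey1* and *Id2*, which are targets of BMP signalling in the endothelium, fell by 1.14 and 0.87.

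Genes that p53 activates were among those that rose at the earliest age. Of 22 listed target genes 20 were tested, and 16 rose and none fell over all ages, with a median log2 fold change of 1.19. Among them, *Gdf15* met the criterion on detection through hyperoxic cells, and *Cdkn1a* is named by the study on these samples. At P3, where 0.97% of all genes rose and 0.243% fell, 10 of the 20 rose and none fell by the edgeR test, and they were among the 72 genes that rose at that age. The median log2 fold change of the 20 genes at P3 was 0.98, against 0.01 over all genes tested. With the pool as a replicate block 10 of the 20 rose at P3, where 2.47% of all genes did. The percent of mitochondrial UMIs was also higher in hyperoxia at P3, and its part in these values was not tested. At P7, 17 rose and 1, *Sesn1*, fell, where 7.64% of all genes rose and 6.86% fell. At P14, 13 rose and 1, *Btg2*, fell, where 23.7% of all genes rose and 20.8% fell, and 2 fell there with the pool as a replicate block.

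*Cdkn1a*, the cell cycle inhibitor p21, had 158.4 to 395.9 CPM, with a median of 225.3, in normoxic and 376.0 to 939.6 CPM, with a median of 680.1, in hyperoxic P3 mice. At P7 the ranges were 164.2 to 317.6 and 1025 to 1546 CPM, and at P14 they were 184.2 to 769.7 and 1212 to 1733 CPM. The groups overlapped slightly at P3 and were apart later. Its log2 fold changes were 1.58 ± 0.22 at P3 (adjusted p = 1.39e-05), 2.54 ± 0.22 at P7 (adjusted p = 1.43e-12) and 1.502 ± 0.20 at P14 (adjusted p = 1.42e-08), and the effects at P14 and P3 differed by -0.07 ± 0.29 (adjusted p = 0.902). *Zmat3*, which encodes an RNA-binding protein, did not overlap at any age, and its medians at P3 were 7.09 and 38.5 CPM (log2 fold change 2.27 ± 0.40, adjusted p = 0.000579). *Ccng1*, which encodes cyclin G1, rose at each age, by 1.77, 2.15 and 1.82 on the log2 scale. *Bax*, which permeabilises mitochondria in apoptosis, had 171.3 to 310.3 CPM in normoxic and 413.6 to 801.8 CPM in hyperoxic P3 mice, with no overlap.

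*Gdf15*, a stress-induced member of the TGF-β family, had medians of 5.07 and 53.5 CPM at P3, 4.77 and 110.9 CPM at P7 and 10.6 and 381.7 CPM at P14. The groups overlapped at P3 and not later. Over all ages its log2 fold change was 4.61 ± 0.29 (adjusted p = 1.10e-16). At P3 it was 3.83 ± 0.65 (adjusted p = 0.000434), but fewer than 10% of cells had a UMI at either oxygen level, so that the gene was not counted there. Effects at P14 and P3 differed for 5 of the 20 genes. *Bax*, *Phlda3*, *Aen* and *Rps27l* rose more at P14, by 0.69, 1.29, 1.20 and 0.59 on the log2 scale, and *Fas* had a lower effect, by 0.62, where 8.42% of all genes had a higher and 9.34% a lower effect at P14.

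Promoter sequences show what 4 of these genes share. In the RefSeq table of GRCm38.p6, 17 of the 22 listed genes had a promoter, of which 300 bases per start were searched on both strands for the p53 response element. A match had both of its 2 half-sites with their central C and G intact, at most 2 other mismatches and at most 1 base between the half-sites. It was found for 4 of the 17 genes and for 218 of 27025 genes in the table (0.807%). The stretches are shown 5′ to 3′ on the strand of the gene because all 4 genes rose at P3, P7 and P14, and capitals mark the element. They are chr17:29090888-29090978 (+), chr11:40755422-40755521 (-), chr7:45467039-45467139 (-) and chr9:66946256-66946355 (+) in this order.
Cdkn1a: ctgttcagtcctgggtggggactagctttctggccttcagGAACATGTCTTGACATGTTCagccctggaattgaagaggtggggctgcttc
Ccng1: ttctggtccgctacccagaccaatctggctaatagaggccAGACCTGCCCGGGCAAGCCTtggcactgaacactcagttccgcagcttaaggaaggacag
Bax: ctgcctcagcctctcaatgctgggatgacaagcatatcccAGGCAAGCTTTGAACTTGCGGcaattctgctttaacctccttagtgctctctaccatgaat
Rps27l: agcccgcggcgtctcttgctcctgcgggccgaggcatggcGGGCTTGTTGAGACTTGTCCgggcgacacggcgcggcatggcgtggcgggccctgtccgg
The elements end 32, 176, 181 and 98 bases before a RefSeq start. That of *Rps27l* lies in the first intron as GENCODE annotates the gene, before an internal start. A match describes the letters and does not show binding. The 17 genes were listed because they are p53 targets, so that their share with the element is not a result of these data.

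**Figure D3:**
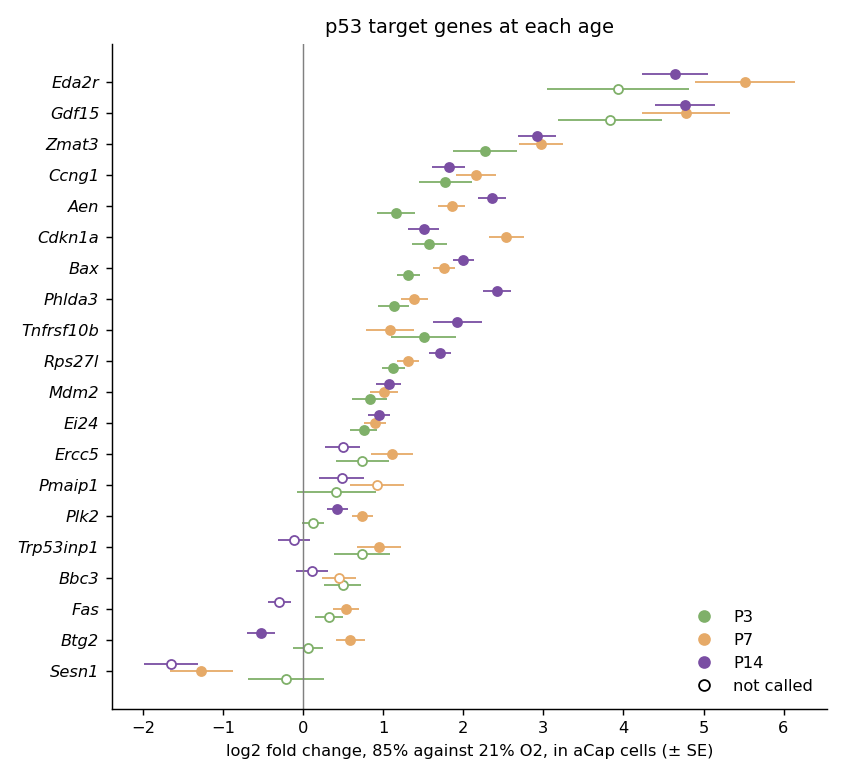
Log2 fold change of 85% against 21% O2 in aCap cells (± SE) of the 20 listed p53 target genes tested, at P3 (green), P7 (orange) and P14 (purple). Filled points passed the test and the 10% detection; 10 genes rose already at P3 and the upper 12 genes lie right of 0 at all ages.

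Of 18 listed matrix and anti-angiogenic genes tested, 14 rose and 3 fell over all ages, where 20.9% of all genes rose and 17.5% fell. Their median log2 fold change was 0.75. At P3, 2 of them rose, where 0.97% of all genes did, and 4 rose with the pool as a replicate block, where 2.47% did. At P7 12 rose and 2 fell, where 7.64% of all genes rose and 6.86% fell, and at P14 14 rose and 3 fell, where 23.7% rose and 20.8% fell. *Col18a1*, whose product is the source of endostatin, had 2.71 to 14.9 CPM in normoxic and 116.7 to 442.4 CPM in hyperoxic P14 mice, with no overlap. It met the criterion on detection through hyperoxic cells. Before thinning, 4.74%, 6.07% and 2.39% of normoxic aCap cells held a UMI of it at P3, P7 and P14. Its log2 fold change was 1.20 ± 0.57 at P3 (adjusted p = 0.349) and 5.30 ± 0.35 at P14 (adjusted p = 1.47e-17). *Timp3*, an inhibitor of metalloproteinases that also blocks KDR, had medians of 1111 and 3326 CPM at P14 and rose by 1.05 over all ages. *Igfbp7* had medians of 2757 and 4520 CPM at P14 and rose by 0.40, and *Fxyd5*, a regulator of the sodium pump, rose by 1.66. *Timp3*, *Igfbp7* and *Fxyd5* are named by the study on these samples, so that the counts of this list are not independent evidence. The members that fell were *Igfbp4*, *Sparcl1* and *Adamts1*. The integrin subunits *Itgb1* and *Itga2* rose by 0.57 and 0.28.

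Among the ligands and receptors by which capillaries grow, *Angpt2* rose and *Tek* and *Ephb4* fell. Of 10 ligands tested 3 rose and 2 fell, and of 15 receptors 2 rose and 6 fell, with median log2 fold changes of -0.064 and -0.085, where 20.9% of all genes rose and 17.5% fell. Angiopoietin-2 (*Angpt2*), an antagonist of the receptor TEK, had 8.14 to 23.9 CPM in normoxic and 111.7 to 422.8 CPM in hyperoxic P14 mice. Its log2 fold change was -0.41 ± 0.81 at P3 (adjusted p = 0.901) and 3.76 ± 0.46 at P7 (adjusted p = 2.47e-08). *Tek* itself had 165.4 to 243.2 CPM in normoxic and 7.44 to 32.4 CPM in hyperoxic P14 mice and fell by 1.67 over all ages. The ephrin receptor *Ephb4* fell by 1.12, and *Vegfa*, for which the highest level of any type was that of AT1 cells, fell by 0.94 in aCap cells.

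The receptors *Kit* and *Aplnr*, which mark gCap cells, fell in aCap cells over all ages. They were named because they are among the 5 largest decreases. *Kit* had 57.9 to 110.2 CPM in normoxic and 6.19 to 71.1 CPM in hyperoxic P3 mice. At P14 it had 154.2 to 195.0 CPM, with a median of 168.6, against 2.96 to 11.7 CPM, with a median of 7.94. Its log2 fold change was -0.53 ± 0.23 at P3 (adjusted p = 0.274), -3.34 ± 0.27 at P7 (adjusted p = 1.64e-13) and -4.44 ± 0.23 at P14 (adjusted p = 2.93e-21). The apelin receptor *Aplnr* had 89.2 to 153.6 CPM in normoxic and 0 to 13.3 CPM in hyperoxic P14 mice, with a log2 fold change of -4.87 ± 0.33 (adjusted p = 3.66e-17). Both genes were apart between the groups at P7 and P14.

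*Cxcl12*, a chemokine that retains leukocytes and guides vessels, fell at each age. It had 88.4 to 253.4 CPM in normoxic and 0 to 53.4 CPM in hyperoxic P3 mice, with no overlap, and a log2 fold change of -2.39 ± 0.60 (adjusted p = 0.0282). At P7 the groups overlapped, at 13.6 to 319.9 and 0 to 44.8 CPM (log2 fold change -2.11 ± 0.52, adjusted p = 0.00290). The thinned share of cells with a UMI was 4.63% in normoxia and 1.78% in hyperoxia at that age (exact permutation test, adjusted p = 0.313), and before thinning 10.9% and 5.36% (exact permutation test, adjusted p = 0.139). At P14 the medians were 145.3 and 9.60 CPM. *Grrp1*, a gene enriched in the endothelium, had medians of 111.0 and 45.5 CPM at P3 and of 87.3 and 4.75 CPM at P14, and was apart at every age. *Gja4*, the connexin of arterial endothelium, had medians of 168.8 and 4.79 CPM at P14, and its log2 fold change over all ages was -2.35 ± 0.29 (adjusted p = 8.22e-09). The hyperoxic P14 mouse with the most *Cxcl12* (64.9 CPM) also had the most *Gja4* (67.25 CPM). Before thinning, 12.1% and 15.6% of normoxic aCap cells at P14 held a UMI of *Cxcl12* and *Gja4*. The summed arterial markers were also lower in hyperoxia at P14. The part of arterial RNA or cells in the levels of *Cxcl12* and *Gja4* was not tested.

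In all, 13 of 14 gCap markers were tested, of which 1 rose (*Cd93*) and 8 fell, where 20.9% of all genes rose and 17.5% fell. The median log2 fold change of these markers was -1.10. With the pool as a replicate block 3 rose and 9 fell. At P14, 1 rose and 9 fell, where 23.7% of all genes rose and 20.8% fell. The summed level of the gCap markers in aCap cells was 6473 to 7742 CPM in normoxic and 3039 to 3955 CPM in hyperoxic P14 mice. In B cells the same markers summed to 152.4 and 116.9 CPM at P14, *Kit* to 4.12 and 3.94 CPM and *Aplnr* to 1.03 and 1.31 CPM, so that the normoxic aCap levels lay above this background. The fewer gCap cells in hyperoxia moved with these genes, and their part in the result, through free RNA or pairs of cells from the same mouse, was not tested beyond the values in B cells.

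Markers of other cell types were summed as well. Over all ages 20.9% of all genes rose and 17.5% fell, and at P14 23.7% rose and 20.8% fell. Of the markers of arterial cells, 5 of 7 tested fell and none rose over all ages by the edgeR test. Their summed level was 1143 to 1921 CPM in normoxic and 398.4 to 622.1 CPM in hyperoxic P14 mice. Of the AT1 markers 2 of 5 tested fell over all ages and 4 at P14, and their summed level at P14 was 1098 to 1346 CPM against 538.9 to 909.1 CPM. For AT2 markers none of 8 passed the edgeR test over all ages and 4 fell at P14, and the sums at P14 were 1141 to 1734 CPM against 608.9 to 964.9 CPM. Leukocyte markers summed to at most 372.3 CPM and fibroblast and pericyte markers to at most 562.9 CPM in any mouse, with 0 of 5 and 1 of 7 tested falling over all ages and 1 and 4 at P14. With the pool as a replicate block 1 AT2 marker and 2 fibroblast and pericyte markers fell over all ages, and 2 leukocyte markers at P14. The part of these levels in the results at P14 was not tested. The sums of 5 haemoglobin and other red cell markers varied from 3.48 to 27060 CPM between mice, with no call between oxygen levels. Of 9 venous markers 1 was tested and did not pass, and of 10 pan-endothelial markers 4 rose and 4 fell. Of 7 lymphatic markers 2 were tested. The hyaluronan receptor *Lyve1*, singled out after its values were seen, had 629.5 to 819.0 CPM in normoxic and 1173 to 1424 CPM in hyperoxic P3 mice and did not overlap at any age. It rose by 1.52, whereas *Prox1*, *Mmrn1*, *Pdpn*, *Reln* and *Ccl21a* were too low to be tested.

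*Nnmt*, which methylates nicotinamide, was detected in 0 to 10.4 CPM in normoxic and 75.9 to 139.3 CPM in hyperoxic P14 mice, with a log2 fold change over all ages of 4.16 ± 0.30 (adjusted p = 5.01e-15). *Akr1b8*, an aldo-keto reductase, had 0 to 16.5 CPM and 61.7 to 209.1 CPM at P14, and its log2 fold change over all ages was 3.97 ± 0.29 (adjusted p = 1.16e-14). Both genes overlapped at P3 and were apart at P7 and P14.

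Some genes of the defence against oxidants rose. Of 12 NRF2 target genes tested 5 rose and 2 fell, with a median log2 fold change of 0.12, where 20.9% of all genes rose and 17.5% fell. *Gclc*, which makes glutathione, rose by 0.80, the ferritin light chain *Ftl1* by 0.76 and *Esd* by 0.67. Of 13 antioxidant enzymes 6 rose and 2 fell, with a median of -0.01. Extracellular glutathione peroxidase *Gpx3* rose by 1.80, *Gpx1* by 0.71 and mitochondrial thioredoxin *Txn2* by 0.42. HIF target genes are induced when oxygen is scarce, and 7 of 12 tested rose and 2 fell, with a median of 0.37. *Ankrd37* rose by 2.21 and *Bhlhe40* by 1.69, whereas *Vegfa* fell. The mean level of *Vegfa* was 43.8 CPM in aCap cells and 1893 CPM in AT1 cells, and the part of AT1 RNA in its fall was not tested.

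Inflammatory genes changed in both directions, as did genes in general, of which 20.9% rose and 17.5% fell over all ages. Of 13 genes of leukocyte adhesion 4 rose and 4 fell. With the pool as a replicate block 5 of them rose, where 22.4% of all genes did. *Icam1*, the ligand of leukocyte integrins, had 124.5 to 288.1 CPM in normoxic and 411.6 to 808.3 CPM in hyperoxic P14 mice and rose by 1.39 over all ages. *Icam2* changed by 0.14 and did not pass the test, but with the pool as a replicate block each of the 16 genes that the study names passed. The junctional adhesion protein *Esam* fell by 0.18. The integrin subunit *Itgav* rose by 0.91 and *Itga1* fell by 1.20. Of 10 chemokine, cytokine and NF-κB genes 3 rose and 3 fell, among them the CXCL12 scavenger *Ackr3*, which rose by 1.55, and *Tnfaip3*, an inhibitor of NF-κB, which rose by 1.34. Interferon-stimulated genes fell more often than they rose, with 2 of 15 rising and 7 falling and a median log2 fold change of -0.30. *Gbp4* fell by 1.47 and *Irf1* by 0.76, and *Bst2* rose by 0.80. Of 11 genes of antigen presentation 1 rose and 4 fell, such as *H2-T23* by 0.92 and the immunoproteasome subunits *Psmb9* by 0.82 and *Psmb8* by 0.53.

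Of 20 endothelial transcription factors tested 3 rose and 10 fell, with a median of -0.38, where 20.9% of all genes rose and 17.5% fell. The lists that follow are read against the same shares, and counts and fold changes given without an age are over all ages. *Foxo1* fell by 1.26, *Foxp1* by 1.17 and *Hey1* by 1.14. Of 14 junction genes 2 rose and 7 fell, and *Cav1*, the coat protein of caveolae, fell from 847.2 to 1078 CPM in normoxic to 205.4 to 271.8 CPM in hyperoxic P14 mice. The tight junction scaffold *Tjp1* fell by 0.68. Among 13 vasoactive genes 1 rose and 8 fell, and with the pool as a replicate block 2 rose and 9 fell. The receptor of adrenomedullin and CGRP, *Calcrl*, had 1034 to 1247 CPM in normoxic and 501.5 to 787.4 CPM in hyperoxic P3 mice, and 1769 to 2244 CPM and 259.0 to 491.6 CPM at P14. It was apart at each age, with a log2 fold change over all ages of -1.46. Endothelin-1 (*Edn1*) rose by 0.91. Of 13 genes of lipid uptake none rose and 6 fell, and the lipoprotein lipase *Lpl* fell by 1.19, its capillary anchor *Gpihbp1* by 0.97 and *Fabp5* by 0.90.

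Of 21 cell cycle genes 1 rose and 2 fell over all ages, where 20.9% of all genes rose and 17.5% fell. Their median log2 fold change was -0.41. At P7 the median was -1.16, and 1 rose and 2 fell, where 7.64% of all genes rose and 6.86% fell. Of the 21 genes 10 had an adjusted p under 0.05 at P7 before the criterion on detection. At P14 the median was 0.42, and 2 rose and 3 fell, where 23.7% of all genes rose and 20.8% fell. Cyclin D1 (*Ccnd1*) rose by 1.10, and *Stmn1* and *Hmgb2* fell by 0.99 and 0.88. Of 20 immediate early and dissociation stress genes 9 rose and 1 fell over all ages, and 8 rose and 3 fell with the pool as a replicate block. They had a median log2 fold change of 0.26, and *Klf6* rose by 0.64, *Atf3* by 0.63 and *Nr4a1* by 0.59. At P7, where 7.64% of all genes rose, 10 of the 20 rose and none fell by the edgeR test, with a median of 0.52. At P14 5 rose and 5 fell, and the medians at P3 and P14 were -0.06 and -0.03. Their part in the other values at P7 was not tested.

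**Figure D4:**
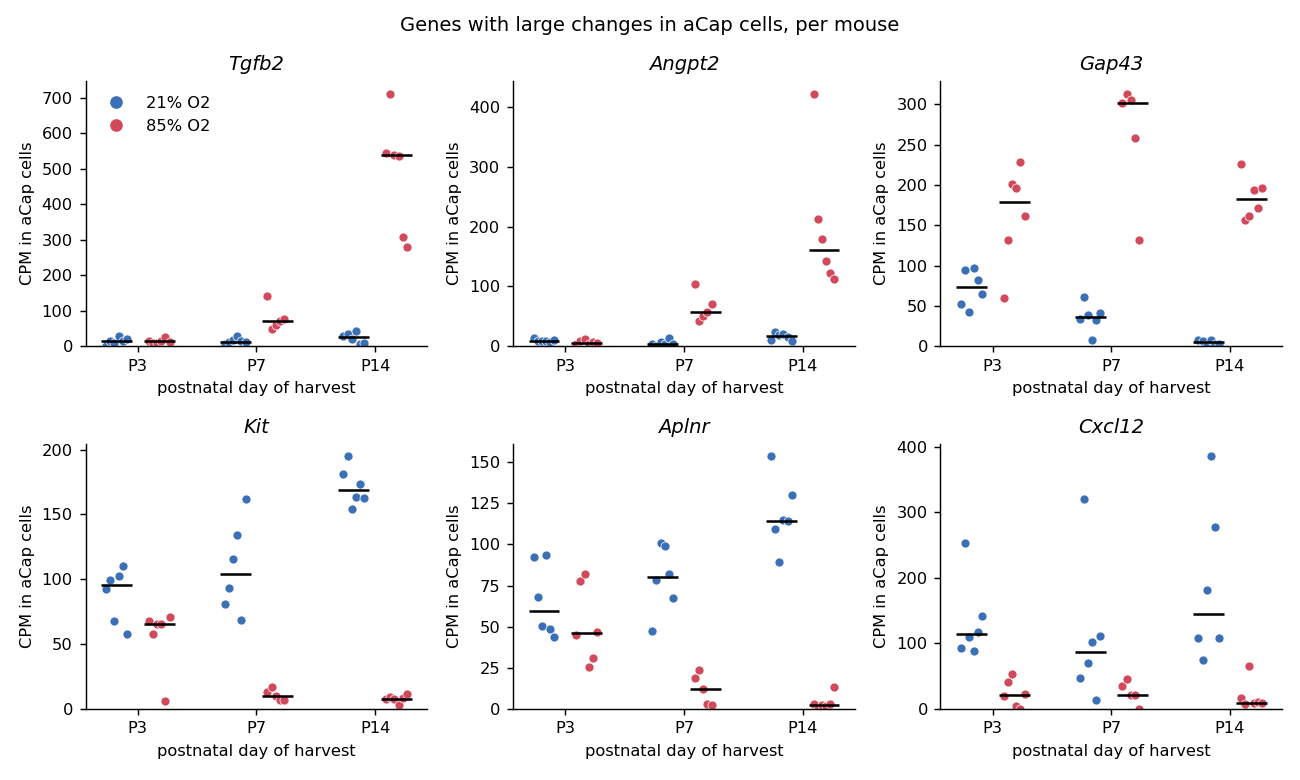
CPM of *Tgfb2*, *Angpt2*, *Gap43*, *Kit*, *Aplnr* and *Cxcl12* in the aCap cells of each mouse by postnatal day, in 21% O2 (blue) and 85% O2 (red), with medians as lines. The upper 3 genes are higher in every hyperoxic than in every normoxic mouse at P7 and P14, and the lower 3 are lower in every hyperoxic mouse at P14.

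To see when the response arose, the effects at P14 and P3 were compared in 1 model. They differed for 1318 genes (17.8%). The largest increases were those of *Tgfb2*, *Nnmt*, *Inhba* and *Lmcd1*, a LIM-domain protein, whose effect was 4.33 higher at P14 on the log2 scale. *Lmcd1* had medians of 38.4 and 19.1 CPM at P3 and of 17.5 and 159.6 CPM at P14. The largest decreases were those of *Aplnr*, *Kit*, the calcium pump *Atp2a3* with -4.05 and the receptor *Gpr182* with -3.98. Of the 13 gCap markers 8 had a lower and 1 a higher effect at P14, and of the 18 matrix genes 12 had a higher and 2 a lower effect. Age and pool cannot be told apart for P14, since no pool held P14 mice with another age, but each pool held both oxygen levels.

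Normal development was read from the normoxic mice. Age and pool cannot be told apart in the comparisons with P14, since P14 mice shared no pool with another age. A pool held both P3 and P7 mice. Between P3 and P7, 6 genes rose (0.0809%) and 3 fell (0.0404%), whereas 1740 (23.5%) changed between P7 and P14 and 2122 (28.6%) between P3 and P14. From P3 to P14, 1066 genes rose (14.4%) and 1056 fell (14.2%). Of the 19 aCap markers 13 rose and 1 fell (*Igfbp7*), of the 13 gCap markers 9 rose and none fell by the edgeR test, and of the 15 receptors of vascular growth 10 rose and none fell. Genes of the cell cycle declined, with 9 of 21 falling and none rising and a median log2 fold change of -2.38. *Cdk1* fell by 4.11, with medians of 40.3 CPM at P3 and 3.60 CPM at P14, and *Cks1b* by 3.07. Other measures moved with age in normoxia. The percent of mitochondrial UMIs per aCap cell was 4.91% ± 0.63 at P3 and 6.07% ± 0.72 at P14 (SD, n = 6, exact permutation test, adjusted p = 0.0195). The median UMIs per aCap cell were 3283 ± 907.3 at P7 and 1975 ± 273.8 at P14 (SD, n = 6, exact permutation test, adjusted p = 0.0195). Of the 5 red cell markers 4 fell from P7 to P14, with a median log2 fold change of -4.17, and their sums lay between 414.0 and 26470 CPM at P7 and between 3.48 and 3974 CPM at P14. The part of these measures in the comparisons by age was not tested.

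The largest increases from P3 to P14 were those of *Mylip*, a ubiquitin ligase of the LDL receptor, with 2.61, of *AU020206*, a long non-coding RNA, with 2.61, of the clock gene *Per1* with 2.40 and of the ephrin receptor *Epha4* with 2.37. Beside the cell cycle genes, the growth cone protein *Gap43* fell by 4.08 and *Cyp1a1*, a target of the aryl hydrocarbon receptor, by 3.03. *Gap43* had medians of 73.7, 36.0 and 4.78 CPM in normoxia and of 178.9, 301.5 and 182.6 CPM in hyperoxia at P3, P7 and P14. Its hyperoxic mice overlapped the normoxic ones at P3 and were apart later. *Bmpr2*, *Ednrb* and *Kit*, which were lower in hyperoxia at P14, rose in normoxia from P3 to P14 by 1.04, 0.56 and 0.88. The comparisons share the normoxic mice of P3 and P14, so that these values are not independent of those of hyperoxia.

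Whether the effect of hyperoxia differed between the capillary types was tested in 35 mice with both types, with the mouse as a block. Of 8658 genes 425 differed (4.91%). In aCap cells the effect was higher than in gCap cells for 99 genes (1.14%) and lower for 326 (3.77%). Of the 20 aCap markers 16 had a lower effect in aCap cells and none a higher one by the edgeR test, with a median difference of -0.80, whereas the median over all genes was -0.01. Of the 13 gCap markers 9 had a lower effect in aCap cells and 1, *Sema3c*, a higher one.

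Several markers of aCap cells were higher in the gCap cells of hyperoxic mice at P14. *Apln* had 10.2 to 32.7 CPM in normoxic and 556.3 to 1290 CPM in hyperoxic gCap cells at P14, against 233.5 to 337.0 and 916.6 to 1328 CPM in aCap cells. The effect in aCap cells was lower by 1.83 ± 0.21 on the log2 scale over all ages (adjusted p = 6.22e-09). *Kdr* had 365.3 to 448.7 CPM and 980.3 to 1221 CPM in gCap cells at P14, with a difference between the types of -0.83 ± 0.10 (adjusted p = 6.22e-09). For *Car4* the gCap ranges were 77.2 to 94.8 and 198.6 to 478.9 CPM, and for *Kitl* 412.3 to 497.4 and 877.8 to 1033 CPM. The differences were -0.83 ± 0.18 (adjusted p = 0.000976) and -0.65 ± 0.09 (adjusted p = 2.90e-07). At P3 *Car4* was lower in the gCap cells of hyperoxic mice, with medians of 126.5 CPM in normoxia and 82.3 CPM in hyperoxia (log2 fold change -0.68 ± 0.21), and the log2 fold changes of *Kitl*, *Kdr* and *Apln* there were -0.02 ± 0.12, 0.115 ± 0.13 and 0.77 ± 0.32. The number of aCap cells per gCap cell at P14 moved with the gCap levels, from 0.263 to 0.413 in normoxic and from 1.02 to 1.86 in hyperoxic mice. In B cells of hyperoxic P14 mice *Apln*, *Kdr*, *Car4* and *Kitl* stood at 6.57, 13.1, 7.88 and 7.88 CPM. The part of aCap RNA or of pairs of cells from the same mouse in the gCap levels was not tested beyond these values.

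*Ednrb* fell in aCap cells and had medians of 38.0 and 62.6 CPM in normoxic and hyperoxic gCap cells at P14, where the log2 fold change was 0.87 ± 0.27, and the types differed by -1.33 ± 0.23 (adjusted p = 5.24e-05). The sulfotransferase *Chst1* had medians of 186.3 and 224.0 CPM in aCap and of 9.73 and 88.7 CPM in gCap cells at P14, with a difference of -1.79. *Fibin* differed by -1.72, and the neurotrophin receptor *Ntrk2*, which is low in aCap cells, by -1.76. The receptors *Kit* and *Aplnr* were lower in hyperoxia in gCap cells too. *Kit* had 503.1 to 662.3 CPM in normoxia and 60.9 to 107.0 CPM in hyperoxia at P14, and *Aplnr* 290.0 to 384.1 CPM and 25.6 to 67.6 CPM.

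Genes with a higher effect in aCap cells were few. Tissue plasminogen activator (*Plat*) had 27.4 to 47.5 and 206.9 to 424.8 CPM in normoxic and hyperoxic aCap cells at P14, and medians of 61.1 and 201.2 CPM in gCap cells, with a difference of 1.16 over all ages. *Gap43* differed by 0.9955, *Angpt2* by 0.93 and the collagen *Col6a1* by 0.83. *Inhba* was higher in hyperoxia in both types, with medians of 5.51 and 638.8 CPM in gCap cells at P14, and the difference of -0.34 ± 0.34 did not pass the test (adjusted p = 0.702). Cells were assigned to the types by the authors' clustering, in which the same genes took part, and the part of the assignment in these differences was not tested.

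**Figure D5:**
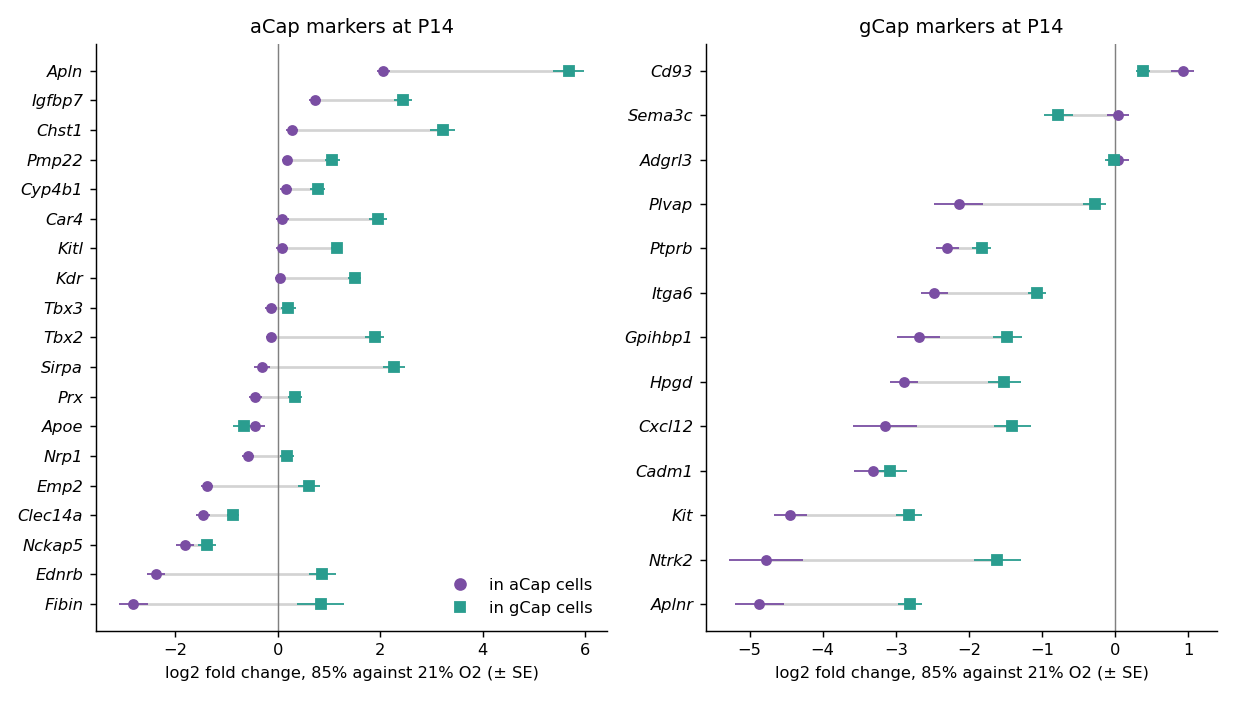
Log2 fold change of 85% against 21% O2 at P14 (± SE) of listed aCap markers (left) and gCap markers (right) in aCap cells (purple circles) and gCap cells (green squares). For *Apln*, *Car4*, *Kdr* and *Kitl* the gCap value lies to the right of the aCap value, and *Kit* and *Aplnr* lie left of 0 in both types.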

How the data were processed

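Lungs of 36 mice were multiplexed with MULTI-seq in 5 pools and profiled with 10x 3′ chemistry. The authors deposited UMI counts per gene and cell, which are not normalized, after Cell Ranger 3.0.2 on mm10 and demultiplexing with deMULTIplex. Cells with more than 1 sample barcode had been removed, as had clusters judged to be contamination. The authors also deposited the cell type, age, oxygen level and percent of mitochondrial UMIs of each cell, and the counts of sample barcodes. The cell cycle scores that the authors deposited, made with Seurat, were not used here. A mouse is a pool and a sample barcode. Cells were used as deposited, including 61 aCap cells above the limit of 20% mitochondrial UMIs that the study states, without a doublet caller, and pairs of cells from the same mouse can remain. Between pairs of libraries 402 cell barcodes were shared, of which 2 belonged to aCap cells in both.

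UMI counts of aCap cells were summed per mouse with at least 10 cells and tested in R 4.3.3 with edgeR 4.0.16 (filterByExpr, TMM, glmQLFit, glmQLFTest). Age entered the fit of all ages, the contrasts by age were taken from 6 group means, and the aCap and gCap sums were fitted together with the mouse as a block. The SE was the log2 fold change over the root of F. The methods were tested on simulated data. Genes were named by a rule: the 5 markers, genes the study names for aCap, the 5 largest increases and decreases over all ages, up to 3 changed members of each gene list, and the 4 largest in each direction for the development, age and cell type comparisons, the last 3 kinds at an average log2 CPM of 5 or more. Other listed genes are named only to account for a count, and 1 gene that the rule names is not reported here. The members and lists were chosen with earlier results of these data known. Two-sided exact permutation tests over mice served for the shares, adjusted over 3 comparisons. Shares of cells with a UMI were compared after thinning to 1000 UMIs, which left out 466 of 3376 cells. They were adjusted over 84 pairs of gene and age. Alternatives used DESeq2 1.42.0 and limma 3.58.1. Tables and permutations were made in Python 3.11.15 (pandas 2.3.3, numpy 2.4.6, scipy 1.17.1).

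The replicates were separate mice. Pools pair normoxic and hyperoxic mice, and a fit with the pool as a replicate block was an alternative. UMI counts limit precision: intervals from the fits cover the spread between mice.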

Additional observations from a re-analysis of the deposited data

Results flagged for a closer look

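Hyperoxia had unequal effects at P14 and P3 in 53 of 89 named genes tested with edgeR's interaction contrast, and 28 of the 53 had a higher effect at P14. Over all genes 8.42% had a higher and 9.34% a lower effect, and the genes with the largest differences are among the named ones by rule. The higher effects on the log2 scale were 4.83 for *Tgfb2*, 4.59 for *Nnmt*, 4.52 for *Inhba*, 4.33 for *Lmcd1*, 4.22 for *Gap43*, 4.11 for *Col18a1* and 4.07 for *Angpt2*. They were 3.83 for *Ctgf*, 3.41 for *Akr1b8*, 2.99 for *Plat*, 2.94 for *Ankrd37*, 2.59 for *Col6a1* and 2.06 for *Fxyd5*. Values of 1.94 for *Icam1*, 1.77 for *Ackr3*, 1.69 for *Apln*, 1.67 for *Ccnd1*, 1.61 for *Esd*, 1.42 for *Tnfaip3*, 1.26 for *Timp3* and 1.18 for *Bhlhe40* followed. The smallest were 0.97 for *Bambi*, 0.94 for *Txn2*, 0.89 for *Ftl1*, 0.68 for *Eng*, 0.64 for *Skil*, 0.62 for *Igfbp7* and 0.52 for *Itgb1*.

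Effects lower at P14 than at P3 were -4.62 for *Aplnr*, -4.05 for *Atp2a3*, -3.98 for *Gpr182*, -3.91 for *Kit*, -3.39 for *Lpl*, -3.31 for *Tek* and -3.01 for *Gpihbp1*. Next came -2.95 for *Hey1*, -2.94 for *Grrp1*, -2.77 for *Fibin*, -2.43 for *AU020206*, -2.31 for *Ednrb*, -2.05 for *Gja4* and -2.04 for *Epha4*. The others were -1.96 for *H2-T23*, -1.84 for *Per1*, -1.83 for *Itga1*, -1.80 for *Calcrl*, -1.74 for *Foxo1*, -1.64 for *Ephb4*, -1.59 for *Cav1*, -1.59 for *Foxp1*, -1.55 for *Stmn1*, -1.07 for *Tjp1* and -0.75 for *Bmpr2*. As a percentage of endothelial cells, the effect on the aCap share was larger at P14 than at P3 by 27.6 points.

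Among 192 groups of mice examined, 13 held a mouse far from the others by Dixon's criterion, and chance flags about 1 in 20. In the P3 normoxic group a mouse had a median of 3.63% mitochondrial UMIs. In CPM, the other mice far from their group had 1803 of *Kitl*, 288.1 of *Icam1* and 10.4 of *Nnmt* at P14 in normoxia and 1023 of *Bmpr2* at P7 in normoxia. For *Cxcl12* such mice had 253.4 at P3 and 319.9 at P7 in normoxia and 64.9 at P14 in hyperoxia. At P3 in hyperoxia a mouse had 6.19 of *Kit* and a mouse 18.6 of *Gja4*. At P14 in hyperoxia such values were 3654 of *Igfbp7*, 13.3 of *Aplnr* and 67.2 of *Gja4*. The last came from the same mouse as the 64.9 of *Cxcl12*.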

How the results depend on the processing

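Thinning cells to 1000 UMIs left 2246 genes to test and 768 calls over all ages, 17 at P3, 153 at P7, 856 at P14, 273 for P14 against P3, 352 and 761 for P14 against P7 and P3 in normoxia, and 160 for aCap against gCap. Fewer genes are tested there by construction. With the pool as a replicate block 243 genes were called at P3 in place of 90, and the block changed no other count over all genes by over 1.5 times. Of 68 counts of list members by direction, the block moved 5 over all ages, 16 at P3, 7 at P7 and 2 at P14 by over 1.5 times, each by at most 3 genes. For P7 against P3 in normoxia, DESeq2 called 14 genes and edgeR with low counts kept 62, in place of 9. As a percentage of endothelial cells the aCap difference was 1.76 points at P3 (exact permutation test, adjusted p = 0.561), which reversed its sign, and 15.7 at P7, which passed the test. In normoxia it was -5.91 from P7 to P14 and -7.50 from P3 to P14, both past the test and reversed. Leaving out a pool gave 1934 to 3033 calls over all ages, and leaving out a hyperoxic P7 mouse 839 to 1043 calls at P7. Of 878 values of named genes under the alternatives, 842 kept their direction and side of the threshold, 25 no longer passed, 7 newly passed and 4 reversed, none of them past the threshold. These were *Car4* at -0.0758 and *Kdr* at -0.170 after thinning, and *Kdr* and *Kitl* without the pool of P3 and P7. Most alternatives keep the difference in depth between oxygen levels. After thinning alone, 46 values were kept, 9 no longer passed, 1 newly passed and 2 reversed. The remainder of the 98 pairs of named gene and comparison could not be tested there, so that their dependence on depth is not known. Leaving out each pool in turn gave, as log2 fold changes, -0.0021 to 0.0583 for Kdr, all ages, and -0.115 to 0.0392 for Kitl, all ages. The causes were not tested. Permuting oxygen labels within pools changed no call on shares.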
